A study of Mus musculus with 9 samples.

Results

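The cytochrome P450 genes of families 1 to 4, apart from the Cyp2c subfamily, were described in mouse liver and in a liver tumor. They are 45 of the 18194 genes that the arrays measured through probe sets with a single gene symbol. A gene belonged to the set by its symbol alone. Each gene was read from its probe set with the highest mean over the 9 arrays, and 37 of the 45 genes were bright enough to be tested. All 9 arrays carried RNA from male C57Bl6 mice aged 12 months, kept on regular chow without treatment. The first group is 3 pieces of liver from 1 wild-type mouse, labelled as normal with mild steatosis. The second group is 3 pieces of liver lying next to a tumor in 1 SART1+/- mouse, labelled as cellular alteration with severe steatosis. The third group is 3 pieces of the tumor of that same mouse, labelled as hepatocellular carcinoma with severe steatosis. With 1 mouse per genotype, p-values measure only the spread between pieces of tissue, and the genotype, the degree of steatosis and any other difference between the mice cannot be told apart. The comparisons ask how P450 expression differs between tumor and wild-type liver, and how much of that difference is already seen in the liver beside the tumor.

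Cytochromes P450 are heme enzymes, mostly of the endoplasmic reticulum, that insert an oxygen atom into their substrates with electrons supplied by NADPH-P450 reductase and cytochrome b5. In liver, members of families 1 to 3 oxidise drugs, pollutants and steroids, and members of family 4 oxidise the far end of fatty acids and eicosanoids. Many are switched on by ligand-sensing transcription factors: the aryl hydrocarbon receptor for Cyp1 genes, CAR (Nr1i3) and PXR (Nr1i2) for Cyp2b and Cyp3a genes, and PPAR alpha (Ppara) for Cyp4a genes. In mice, growth hormone secretion also makes several of them differ between males and females, and many are expressed mainly by hepatocytes around the central vein.

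Sart1, the gene targeted in the heterozygous mouse, read 8.35, 8.32 and 8.36 in wild-type liver, 8.34, 8.39 and 8.38 in the liver labelled adjacent, and 7.77, 7.71 and 7.75 in tumor (log2 expression, as throughout). It was no lower in the adjacent pieces than in wild-type liver (difference 0.03, SE 0.05, adjusted p = 0.678), whereas the tumor differed from wild-type liver by -0.60 (SE 0.05, adjusted p = 2.61e-06). The labels do not describe the altered allele, so whether this probe set reads it is not known, and the second group is called adjacent-labelled liver below. The medians of the 9 arrays lay between 5.76 and 5.81, and arrays of a group correlated at 0.996 to 0.998 across probe sets. The 3' minus 5' difference of the Actb control probe sets, a measure of RNA integrity, averaged 0.86 in wild-type liver, 0.85 in adjacent-labelled liver and 0.59 in tumor. That of Gapdh averaged 0.274, 0.161 and 0.213 in the same order, and the part of RNA integrity in the results was not tested. Of 15 hepatocyte markers, 14 lay above the 40th percentile on all arrays, so hepatocyte transcripts were read in all 3 groups. This check cannot tell wild-type, adjacent-labelled and tumor pieces apart. The mean level of the 15 markers was 13.15 to 13.19 in wild-type liver, 12.61 to 12.64 in adjacent-labelled liver and 12.47 to 12.50 in tumor. Of these markers, 5 fell in tumor and 5 in adjacent-labelled liver against wild-type liver, among them the tyrosine-degrading enzymes Tat and Hpd. Of 9 stellate cell and fibroblast markers, 4 rose and 1 fell in both comparisons with wild-type liver. The mean level of all 9 was 8.18 to 8.68 in wild-type liver, 9.24 to 9.51 in adjacent-labelled liver and 9.19 to 9.66 in tumor. Of 4 neutrophil markers, 2 rose in both, S100a8 (3.27 in tumor and 2.82 in adjacent-labelled liver) and S100a9 (2.63 and 2.41), and the others were not called. Averaged over all 4, the level was 6.23 to 6.50 in wild-type liver, 7.65 to 7.83 in adjacent-labelled liver and 7.95 to 8.01 in tumor. Of 6 tested cholangiocyte and progenitor markers, 2 rose in both, Cldn7 (3.81 in tumor and 5.31 in adjacent-labelled liver) and Krt23 (2.41 and 1.63). The others were not called against wild-type liver. The mean level of all 6 was 6.21 to 6.34 in wild-type liver, 7.56 to 7.64 in adjacent-labelled liver and 7.44 to 7.55 in tumor. Of 4 B cell markers, 2 rose in tumor and 0 in adjacent-labelled liver. Averaged over all 4, they read 5.995 to 6.185 in wild-type liver, 6.24 to 6.52 in adjacent-labelled liver and 7.18 to 7.47 in tumor. Of 12 macrophage and Kupffer cell markers, 3 rose and 2 fell in tumor, and 2 rose and 3 fell in adjacent-labelled liver. The part of these cells in the P450 results was not tested, and in bulk tissue fewer cells of a type and less RNA per cell cannot be told apart.

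Several of the genes below differ sharply from close relatives that lie near them in the genome, so the promoter windows of 3 such pairs are shown first. Each window runs from 250 bases before to 50 bases after the start of the gene, written 5′ to 3′, from RefSeq on build GRCm38.p6, which held a window for 34 of the 45 genes. Capitals mark a TATA box (TATAAA, which reads TTTATA on the other strand), an element of the C/EBP type (TTGCNNAA), the nuclear receptor half-site AGGTCA, or the direct repeat AGGNCANAGGNCA, each searched on both strands. The half-site can fall within the direct repeat, whose N positions also allow other letters. Cyp1a1 and Cyp1a2 are neighbours. Against wild-type liver, Cyp1a1 was called in tumor alone, where it rose, and Cyp1a2 in adjacent-labelled liver alone, where it fell. Both were higher in tumor than in adjacent-labelled liver. The Cyp1a1 window is chr9:57697363-57697662 on the plus strand, and the Cyp1a2 window is chr9:57683606-57683905 on the minus strand.
Cyp1a1: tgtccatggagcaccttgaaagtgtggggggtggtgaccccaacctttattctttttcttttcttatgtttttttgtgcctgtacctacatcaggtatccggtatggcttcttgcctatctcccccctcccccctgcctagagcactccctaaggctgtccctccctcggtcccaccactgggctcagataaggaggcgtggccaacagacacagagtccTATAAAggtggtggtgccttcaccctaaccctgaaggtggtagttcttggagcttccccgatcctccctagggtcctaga
Cyp1a2: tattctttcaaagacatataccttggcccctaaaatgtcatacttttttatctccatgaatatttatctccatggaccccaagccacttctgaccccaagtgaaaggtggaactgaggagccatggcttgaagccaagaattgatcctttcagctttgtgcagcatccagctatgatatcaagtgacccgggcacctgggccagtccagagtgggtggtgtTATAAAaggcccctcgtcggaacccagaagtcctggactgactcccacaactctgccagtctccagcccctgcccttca

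Cyp2b9 and Cyp2b10 lie in the same cluster with other genes between them, Cyp2b13 included, and in tumor the former rose and the latter fell. The Cyp2b9 window is chr7:26173159-26173458 on the plus strand, and the Cyp2b10 window is chr7:25897408-25897707 on the plus strand.
Cyp2b9: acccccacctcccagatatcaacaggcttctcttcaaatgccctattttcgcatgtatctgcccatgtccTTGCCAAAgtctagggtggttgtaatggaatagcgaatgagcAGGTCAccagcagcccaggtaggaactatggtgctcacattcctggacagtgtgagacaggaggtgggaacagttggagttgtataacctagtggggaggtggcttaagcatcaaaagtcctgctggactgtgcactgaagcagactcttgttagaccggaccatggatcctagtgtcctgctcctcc
Cyp2b10: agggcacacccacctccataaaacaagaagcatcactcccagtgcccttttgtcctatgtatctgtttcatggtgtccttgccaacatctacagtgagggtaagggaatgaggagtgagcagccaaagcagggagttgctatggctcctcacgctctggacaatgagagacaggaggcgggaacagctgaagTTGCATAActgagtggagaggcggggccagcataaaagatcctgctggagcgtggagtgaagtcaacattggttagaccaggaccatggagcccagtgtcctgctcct

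Cyp2d9 and Cyp2d10 share most of their window, including the direct repeat, and Cyp2d9 fell in tumor while Cyp2d10 was not called. The Cyp2d9 window is chr15:82452127-82452426 on the plus strand, and the Cyp2d10 window is chr15:82407145-82407444 on the minus strand.
Cyp2d9: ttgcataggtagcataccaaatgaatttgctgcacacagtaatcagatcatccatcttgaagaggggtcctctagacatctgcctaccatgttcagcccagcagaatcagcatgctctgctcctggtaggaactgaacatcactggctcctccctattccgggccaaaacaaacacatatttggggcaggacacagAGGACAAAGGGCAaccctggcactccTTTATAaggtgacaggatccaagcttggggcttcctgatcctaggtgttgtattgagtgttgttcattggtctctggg
Cyp2d10: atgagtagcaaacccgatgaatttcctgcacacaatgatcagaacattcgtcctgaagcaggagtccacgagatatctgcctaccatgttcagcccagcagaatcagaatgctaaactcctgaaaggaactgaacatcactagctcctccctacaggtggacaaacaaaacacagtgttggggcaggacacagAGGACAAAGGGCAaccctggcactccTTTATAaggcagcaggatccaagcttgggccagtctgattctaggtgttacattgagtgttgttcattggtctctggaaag

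The TATA box lies 30 bases before the start of Cyp1a1 and 29 before that of Cyp1a2. Among the 34 members with a window, 12 hold a TATA box (35.3%), against 13.6% of all 32851 windows of the same length. The half-site AGGTCA is present in 9 members (26.5%, against 16.3% of all windows) and the C/EBP-type element in 7 (20.6%, against 10.8%). The direct repeat is found in 3 members, Cyp2d9, Cyp2d10 and Cyp2d40 (8.82%, against 0.381%), at 54 bases before the start of Cyp2d9 and 57 before that of Cyp2d10. The aryl hydrocarbon receptor core TNGCGTG is present in 0 of the 34 windows, Cyp1a1 and Cyp1a2 included, and in 5.07% of all windows. Sequence further from the gene starts was not searched, so elements lying there would be missed. Of the windows, 3 hold TTCNNNGAA, the STAT-type element (8.82%, against 8.3%). The Cyp2b9 and Cyp2b10 windows are identical at 220 of 289 aligned bases (76.1%), those of Cyp2d9 and Cyp2d10 at 85.1% and those of Cyp1a1 and Cyp1a2 at 59.1%. Closest of the pairs aligned were Cyp2b9 and Cyp2b13, with 298 of 300 bases identical. The shares of members count genes, while the background shares count windows. Related genes with similar windows are counted separately. The direct repeat was found only in genes of the Cyp2d cluster, and the C/EBP-type element in Cyp2b9, Cyp2b10, Cyp2b13 and Cyp2b19 among others. Enrichment was not tested. These matches describe letters in a short window and show nothing about binding.

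To be called, a gene needed a limma adjusted p under 0.05 together with a log2 difference of 1 or more in either direction, a 2-fold change. In tumor against wild-type liver, 12 of the 37 tested P450 genes fell (32.4%) and 3 rose (8.11%), while 4.59% of all 13888 tested genes fell and 8.41% rose. The median difference of the P450 genes was -0.57, against -0.01 over all genes. In adjacent-labelled against wild-type liver, 7 fell (18.9%) and 3 rose (8.11%), against 3.22% and 8.29% of all genes, with a median of -0.35. In tumor against adjacent-labelled liver, 7 fell (18.9%) and 3 rose (8.11%), against 2.94% and 2.1% of all genes, with a median of -0.13. The share that rose against wild-type liver was thus near the background, and the share that fell was above it in each comparison. These shares of all genes are also the background for the gene lists counted in the other paragraphs. The values of the groups did not overlap for 31 of the 37 genes in tumor against wild-type liver (83.8%), where 69.1% of all genes were separated in this way. The separated shares were 73.0% against 69.5% for adjacent-labelled against wild-type liver, and 67.6% against 53% for tumor against adjacent-labelled liver. Without the 2-fold minimum, 22 members were lower and 8 higher in tumor at an adjusted p under 0.05, where 30.2% of all genes were lower and 33.2% higher. The same counts were 18 and 6 in adjacent-labelled liver (28.9% and 34% of all genes) and 15 and 9 in tumor against adjacent-labelled liver (25.1% and 20.1%). The comparisons share their arrays and are not independent of each other.

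The called genes did not form a single pattern. Of the 37 genes, 18 were called in at least 1 comparison, and 5 of these fell in both tumor and adjacent-labelled liver against wild-type liver: Cyp2b10, Cyp2d13, Cyp2e1, Cyp2u1 and Cyp4a14. A further 7 were called lower in tumor but not in adjacent-labelled liver against wild-type liver, of which Cyp2j5, Cyp2j9, Cyp4a12a and Cyp4f14 were also called lower in tumor than in adjacent-labelled liver, and Cyp2d9, Cyp2r1 and Cyp4f15 were not. Cyp4f16 rose in both, Cyp1a1 rose in tumor, and Cyp2b9 rose in tumor and fell in adjacent-labelled liver. The remaining 3 were called in adjacent-labelled but not in tumor against wild-type liver, namely Cyp2d12 and Cyp2g1, which rose, and Cyp1a2, which fell. For comparison, 9 of 10 tested Cyp2c genes fell in tumor against wild-type liver and 0 rose, and in adjacent-labelled liver 4 fell and 1 rose. Of 12 tested genes of the other P450 families, 6 fell and 2 rose in tumor, and 6 fell and 1 rose in adjacent-labelled liver.

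**Figure D1:**
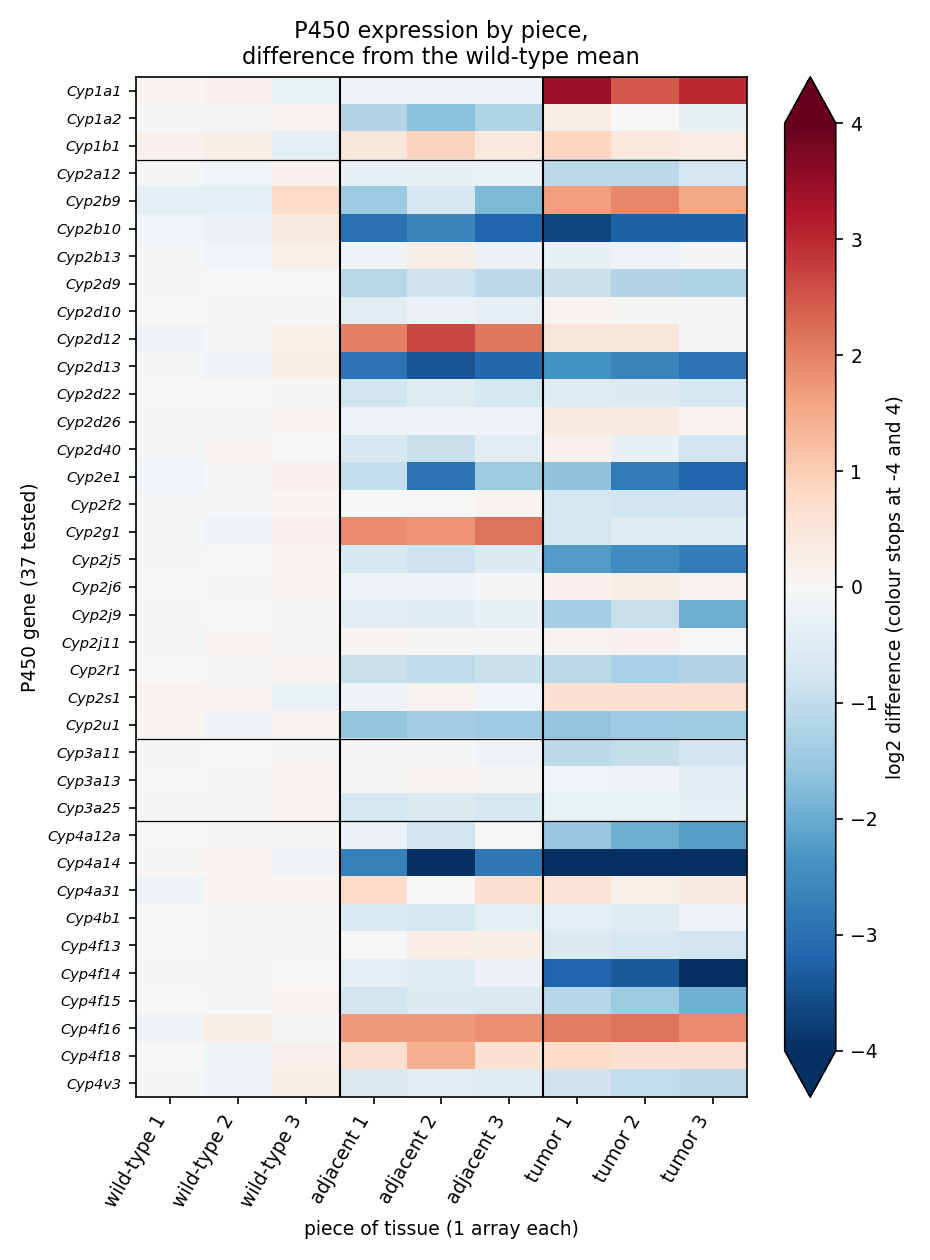
Each row is 1 of the 37 tested P450 genes and each column 1 piece of tissue, coloured by its log2 difference from the mean of the 3 wild-type pieces (red higher, blue lower, colour stopping at -4 and 4); horizontal lines separate families 1 to 4. Blue rows outnumber red ones in tumor, where 12 genes fell and 3 rose, and Cyp2d12 and Cyp2g1 are red in the adjacent-labelled pieces.

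Family 1 holds the genes best known as targets of the aryl hydrocarbon receptor. Cyp1a1, which oxidises polycyclic aromatic hydrocarbons and is normally low in unexposed liver, read 6.72, 6.77 and 6.35 in the wild-type pieces, 6.41, 6.45 and 6.47 in the adjacent-labelled pieces, and 10.02, 9.05 and 9.59 in tumor. All 3 tumor pieces lay above all other pieces. The tumor exceeded wild-type liver by 2.95 (SE 0.20, adjusted p = 4.07e-07), a 7.7-fold difference, and adjacent-labelled liver by 3.11 (SE 0.20, adjusted p = 9.36e-07).

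Cyp1a2, the constitutive hepatic enzyme that metabolises caffeine and arylamines, read 12.49, 12.51 and 12.70 in the wild-type pieces, 11.41, 10.91 and 11.36 in the adjacent-labelled pieces, and 12.80, 12.56 and 12.27 in tumor. Here the adjacent-labelled pieces were the low ones, and tumor and wild-type values overlapped. The fall in adjacent-labelled liver was 2.53-fold (log2 difference -1.34, SE 0.15, adjusted p = 2.32e-05). The tumor was higher than adjacent-labelled liver by 1.32 (SE 0.15, adjusted p = 5.06e-05) and differed from wild-type liver by -0.02 (SE 0.15, adjusted p = 0.896). Cyp1b1, which is expressed mostly outside hepatocytes, lay near the filter, between 4.99 and 6.27, and was not called, with differences of 0.53 in tumor and 0.58 in adjacent-labelled liver.

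The receptor itself and its other targets were read beside these genes. Ahr fell in tumor (-2.18, SE 0.16, adjusted p = 9.14e-07) and in adjacent-labelled liver (-2.17, SE 0.16, adjusted p = 1.17e-06). Its dimer partner Arnt was not called, with differences of -0.30 and -0.15. Of 5 listed targets outside the P450 genes, 2 were tested. Nqo1, a quinone reductase also controlled by NRF2 (Nfe2l2), rose by 3.06 in tumor and 2.81 in adjacent-labelled liver, whereas Tiparp, a feedback inhibitor of the receptor, differed by 0.04 and 0.00. Ahrr and Aldh3a1 lay below the 40th percentile on all arrays. In tumor Cyp1a1 was high and the Ahr transcript was low, and in adjacent-labelled liver Nqo1 rose while Cyp1a1 did not. The activity of the receptor was not measured, and its part in these values was not tested.

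The Cyp2b genes are the classical targets of CAR. Cyp2b10 read 10.48, 10.35 and 10.96 in the wild-type pieces, 7.62, 7.97 and 7.42 in the adjacent-labelled pieces, and 6.92, 7.36 and 7.36 in tumor. The wild-type pieces stood well above the other 6. It fell 10.5-fold in tumor (-3.39, SE 0.19, adjusted p = 8.22e-08) and 7.62-fold in adjacent-labelled liver (-2.93, SE 0.19, adjusted p = 3e-07). A second probe set of Cyp2b10 gave -4.62 in tumor and -3.48 in adjacent-labelled liver. In tumor against adjacent-labelled liver it passed the threshold, at -1.14, where the probe set used here gave -0.46 (adjusted p = 0.0696). The remaining probe set gave -3.43 in adjacent-labelled liver and lay below the filter in tumor, with a mean of 4.07, so no size is given for its tumor differences.

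Cyp2b9, a female-biased testosterone hydroxylase of mouse liver, read 8.21, 8.22 and 9.36 in the wild-type pieces, 7.15, 7.91 and 6.80 in the adjacent-labelled pieces, and 10.27, 10.52 and 10.16 in tumor. The 3 groups did not overlap, with the tumor pieces highest and the adjacent-labelled pieces lowest. In tumor it rose 3.3-fold (1.72, SE 0.32, adjusted p = 0.000884), and in adjacent-labelled liver it fell by 1.31 (SE 0.32, adjusted p = 0.00511). Tumor against adjacent-labelled liver differed by 3.03 (SE 0.32, adjusted p = 3.08e-05), the test of the difference between its responses. Without wild-type replicate 3, the highest of its group, the difference in adjacent-labelled liver was -0.93 and Cyp2b9 was no longer called there. Cyp2b13, whose promoter window matches that of Cyp2b9 at 298 of 300 bases, lay between 5.01 and 5.56 on all arrays, passed the filter on 3 arrays and was not called (-0.18 in tumor, -0.05 in adjacent-labelled liver). The transcripts of Cyp2b9 and Cyp2b13 were not compared, so whether their probe sets share signal is not known.

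Nr1i3, which encodes CAR, was 10.29, 10.26 and 10.18 in the wild-type pieces, 9.83, 10.01 and 10.04 in the adjacent-labelled pieces, and 8.06, 8.07 and 8.11 in tumor. The tumor pieces were the low ones. Nr1i3 fell by 2.17 in tumor (SE 0.07, adjusted p = 1.48e-09) and was not called in adjacent-labelled liver, at -0.28. In adjacent-labelled liver Cyp2b10 was low and Nr1i3 was slightly lower, within 2-fold (limma adjusted p = 0.00392). In tumor Cyp2b9 was high, and Cyp2b10 and Nr1i3 were low. The activity of CAR was not measured, and its part in the Cyp2b values was not tested. Nr1i2, the PXR gene, differed by -0.08 and -0.01. Of 9 tested genes outside the P450 set that were listed as targets of CAR or PXR, 2 fell and 2 rose in tumor. Some of the listed genes also answer to other receptors. Those that fell were the bile salt transporters Slco1a4 (-2.75) and Abcb11 (-1.85), and those that rose were the glutathione transferase Gstm3 (1.91) and the export pump Abcc2 (1.01). In adjacent-labelled liver 1 of them fell, Slco1a4 (-1.70), and 1 rose, Gstm3 (2.29).

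**Figure D2:**
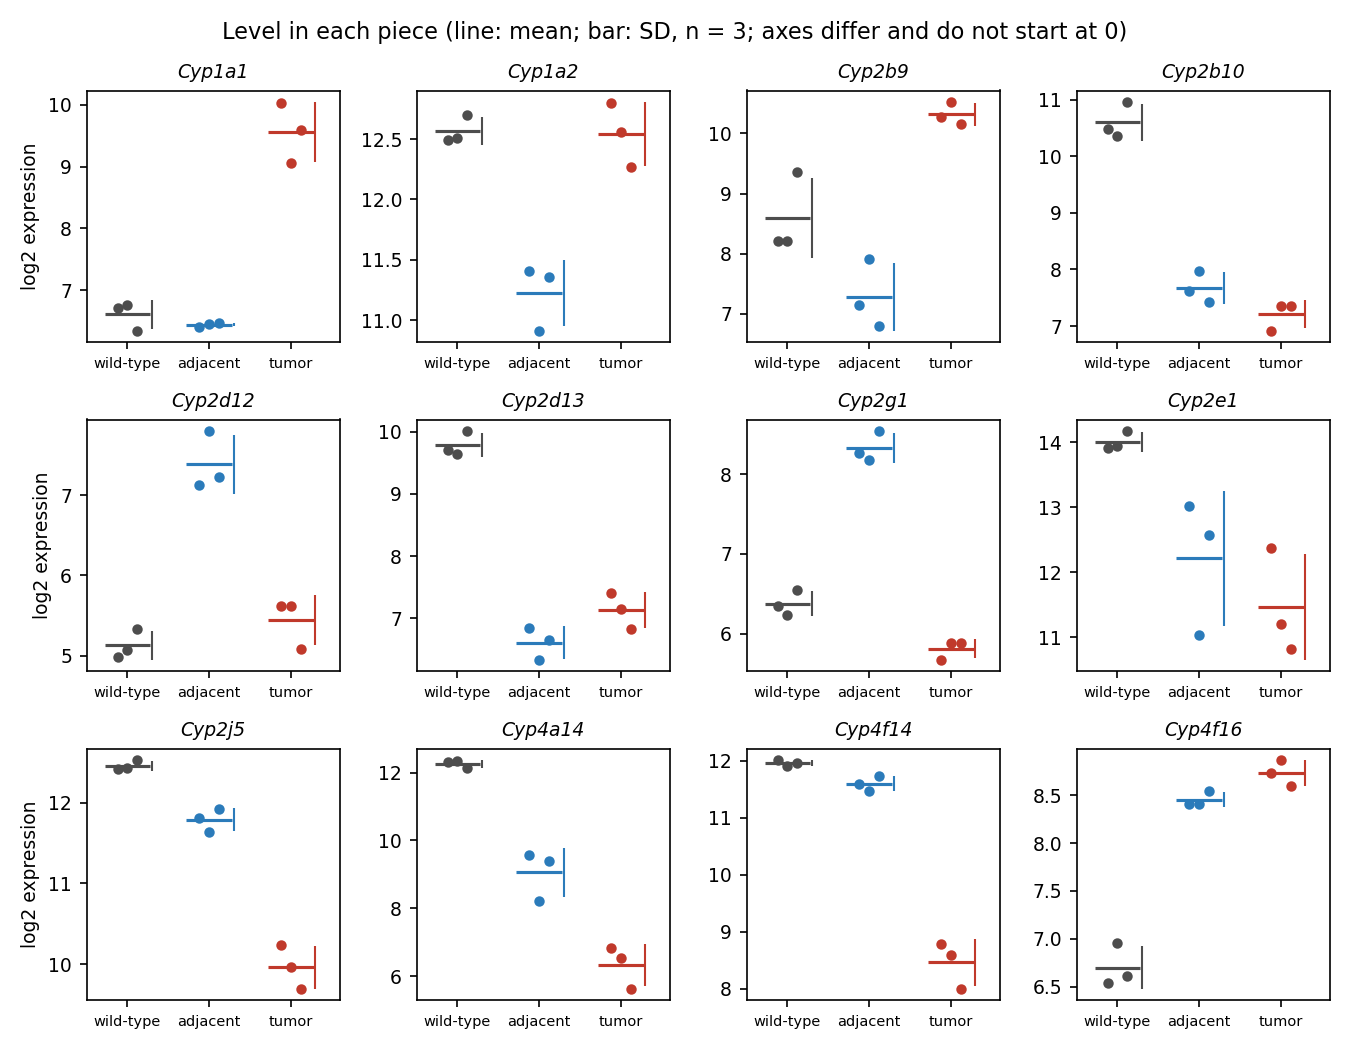
Log2 expression of 12 P450 genes in each piece of tissue (points), with the group mean (line) and SD (bar, n = 3); the vertical axes differ between panels and do not start at 0. Cyp1a1 and Cyp2b9 are highest in tumor, Cyp2d12 and Cyp2g1 are highest in adjacent-labelled liver, and Cyp1a2 is lowest there.

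The Cyp2d genes form a tandem cluster on chromosome 15, and their changes ran in both directions. Cyp2d9, a male-biased steroid hydroxylase, read 13.08, 13.14 and 13.13 in the wild-type pieces, 12.00, 12.29 and 12.08 in the adjacent-labelled pieces, and 12.24, 11.95 and 11.87 in tumor. Both sets of pieces from the SART1+/- mouse lay below the wild-type pieces. It fell 2.14-fold in tumor (-1.10, SE 0.10, adjusted p = 4.92e-06) and differed by -0.99 in adjacent-labelled liver (SE 0.10, adjusted p = 1.22e-05), just short of the 2-fold minimum.

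Cyp2d13 is annotated in RefSeq as a transcribed pseudogene. Its wild-type pieces gave 9.70, 9.65 and 10.01, against 6.85, 6.33 and 6.65 in adjacent-labelled liver, and 7.41, 7.15 and 6.83 in tumor. The 6 pieces of the SART1+/- mouse were all low. It fell 9.06-fold in adjacent-labelled liver (-3.18, SE 0.17, adjusted p = 7.27e-08) and 6.31-fold in tumor (-2.66, SE 0.17, adjusted p = 2.08e-07). Its other probe set gave -2.55 and -2.07.

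Cyp2d12 went the opposite way. It read 4.99, 5.07 and 5.33 in the wild-type pieces, 7.13, 7.80 and 7.22 in the adjacent-labelled pieces, and 5.62, 5.62 and 5.08 in tumor, so that only the adjacent-labelled pieces stood apart. The rise in adjacent-labelled liver was 4.79-fold (2.26, SE 0.19, adjusted p = 2.61e-06), and the tumor was lower than adjacent-labelled liver by 3.85-fold (-1.94, SE 0.19, adjusted p = 1.65e-05). Wild-type values near 5 lie at the filter, so the size of this rise depends on the background. In the gene order of the chromosome Cyp2d12 is separated from Cyp2d13 by Cyp2d34, which was too dim to test, and a few other genes.

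The other Cyp2d genes were not called. Cyp2d10 read 12.84, 12.82 and 12.90 in the wild-type pieces, 12.40, 12.61 and 12.51 in the adjacent-labelled pieces, and 12.97, 12.89 and 12.79 in tumor. Its tumor difference was 0.03 (SE 0.07, adjusted p = 0.737), beside the fall of Cyp2d9. Cyp2d26 read 13.14 to 13.26 in wild-type liver, 12.99 to 13.04 in adjacent-labelled liver and 13.34 to 13.55 in tumor. The tumor pieces of Cyp2d26 were thus slightly higher than the others, by 0.29 against wild-type liver (SE 0.07, adjusted p = 0.00402). Cyp2d22 read 11.66 to 11.74 in wild-type liver and 10.90 to 11.17 in the other 6 pieces, with differences of -0.60 in tumor and -0.67 in adjacent-labelled liver. Cyp2d40 differed by -0.31 and -0.67.

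Cyp2e1, the pericentral enzyme that oxidises ethanol and acetaminophen, read 13.90, 13.93 and 14.17 in the wild-type pieces, 13.02, 11.04 and 12.58 in the adjacent-labelled pieces, and 12.38, 11.21 and 10.82 in tumor. The wild-type pieces were all higher than the rest, and the spread within the other groups was wide (SD 1.04 and 0.81). It fell 5.79-fold in tumor (-2.53, SE 0.48, adjusted p = 0.00093) and 3.45-fold in adjacent-labelled liver (-1.79, SE 0.48, adjusted p = 0.00801). Without adjacent-labelled replicate 2 the fall there was -1.20, and tumor against adjacent-labelled liver passed the threshold at -1.33, where all 9 arrays gave -0.74 (adjusted p = 0.248).

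Cyp2e1 and Cyp1a2 were read with Cyp3a11 as P450 genes of the pericentral zone, and Cyp2f2 as a gene of the periportal zone. Of the 3 pericentral genes, 1 fell in tumor and 2 in adjacent-labelled liver. Cyp3a11, the main PXR-controlled drug-oxidising enzyme of mouse liver, read 13.67, 13.73 and 13.77 in the wild-type pieces, 13.63, 13.64 and 13.60 in the adjacent-labelled pieces, and 12.68, 12.78 and 12.96 in tumor. The tumor pieces were lower than the other 6, by 0.92 against wild-type liver on the log2 scale (-0.92, SE 0.07, adjusted p = 1.45e-06), which is under the 2-fold minimum. Cyp2f2, which is best known for naphthalene oxidation, read 13.62, 13.61 and 13.74 in the wild-type pieces, 13.69, 13.69 and 13.75 in the adjacent-labelled pieces, and 12.97, 12.86 and 12.88 in tumor. It too was lower in the tumor pieces, by a difference of -0.75 (SE 0.06, adjusted p = 1.55e-06), and differed by 0.05 in adjacent-labelled liver.

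The other tested Cyp3a genes stayed within 2-fold. Cyp3a25 read 13.17 to 13.33 in wild-type liver, 12.56 to 12.68 in adjacent-labelled liver and 12.87 to 12.97 in tumor, with differences of -0.62 (SE 0.07, adjusted p = 1.34e-05) and -0.30 (SE 0.07, adjusted p = 0.00247). Cyp3a13 read 11.05 to 11.23 in wild-type liver, 11.17 to 11.23 in adjacent-labelled liver and 10.66 to 11.01 in tumor, a difference of -0.24 in tumor (SE 0.09, adjusted p = 0.0384). Cyp3a16, expressed mainly in fetal and young liver, was dim and not tested because it passed the filter on 2 arrays. It read 2.94, 2.74 and 2.76 in the wild-type pieces, 5.20, 3.82 and 5.50 in the adjacent-labelled pieces, and 2.99, 3.01 and 2.91 in tumor. The 3 adjacent-labelled pieces stood above the other 6.

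The Cyp2j genes produce epoxides and hydroxides of arachidonic acid. Cyp2j5, the abundant hepatic and renal member, read 12.41, 12.43 and 12.53 in the wild-type pieces, 11.81, 11.63 and 11.92 in the adjacent-labelled pieces, and 10.23, 9.96 and 9.70 in tumor. The groups formed 3 separate steps. It fell 5.62-fold in tumor (-2.49, SE 0.12, adjusted p = 3.59e-08) and was lower in tumor than in adjacent-labelled liver by 3.54-fold (-1.82, SE 0.12, adjusted p = 1.17e-06). In adjacent-labelled liver this probe set gave -0.67, while the other probe set of Cyp2j5 gave -1.79 there and -3.81 in tumor.

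Cyp2j9 read 6.89, 6.86 and 6.75 in the wild-type pieces, 6.41, 6.36 and 6.55 in the adjacent-labelled pieces, and 5.47, 5.92 and 4.89 in tumor. It was lowest in tumor, where it fell 2.65-fold (-1.41, SE 0.20, adjusted p = 0.000112), and its lowest tumor piece lay below the filter, so this size depends on the background. Against adjacent-labelled liver its difference was -1.01 (SE 0.20, adjusted p = 0.0018), which left the call at -0.96 without adjacent-labelled replicate 3 and at -0.74 without tumor replicate 3. Cyp2j6, the next gene along chromosome 4, was not called on its brighter probe set (0.18 in tumor and -0.14 in adjacent-labelled liver). Its other probe set passed the threshold in both, at 1.13 and 1.13, so the array gives no single answer for Cyp2j6. Cyp2j11 differed by 0.11 and 0.01.

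Cyp2g1, known as an enzyme of the olfactory mucosa, read 6.34, 6.23 and 6.55 in the wild-type pieces, 8.27, 8.18 and 8.54 in the adjacent-labelled pieces, and 5.67, 5.88 and 5.88 in tumor. The adjacent-labelled pieces were highest and the tumor pieces lowest, with no overlap between groups. It rose 3.87-fold in adjacent-labelled liver (1.95, SE 0.11, adjusted p = 1.34e-07) and was 5.73-fold lower in tumor than there (-2.52, SE 0.11, adjusted p = 8.27e-08). Of the 6 tested genes listed as expressed mainly outside the liver, Cyp2g1 was the one called. Cyp2f2 is on that list too, although its values of 12.86 to 13.75 show high expression in these livers.

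Cyp2u1 and Cyp2r1 fell among the orphan and vitamin-metabolising members. Cyp2u1, a fatty acid hydroxylase listed with the male-biased genes, read 8.15, 7.94 and 8.16 in the wild-type pieces, 6.55, 6.69 and 6.64 in the adjacent-labelled pieces, and 6.51, 6.63 and 6.65 in tumor. The 6 pieces of the SART1+/- mouse were alike, with a fall of 2.81-fold in tumor (-1.49, SE 0.08, adjusted p = 5e-08) and 2.75-fold in adjacent-labelled liver (-1.46, SE 0.08, adjusted p = 7.49e-08). Cyp2r1, the main hepatic 25-hydroxylase of vitamin D, read 8.80, 8.71 and 8.86 in the wild-type pieces, 7.91, 7.77 and 7.90 in the adjacent-labelled pieces, and 7.76, 7.49 and 7.61 in tumor. It fell 2.26-fold in tumor (-1.17, SE 0.08, adjusted p = 4.01e-07), and in adjacent-labelled liver its difference was -0.93 (SE 0.08, adjusted p = 2.88e-06). Cyp2a12, a steroid hydroxylase, read 12.76, 12.72 and 12.99 in the wild-type pieces, 12.49, 12.54 and 12.56 in the adjacent-labelled pieces, and 11.77, 11.76 and 12.14 in tumor. Its tumor pieces were the low ones, by -0.93 (SE 0.11, adjusted p = 2.27e-05), under the 2-fold minimum. Cyp2s1, a mainly extrahepatic member, differed by 0.62 in tumor and -0.06 in adjacent-labelled liver.

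Family 4 contained the largest difference of the set. Cyp4a14, a PPAR alpha target that hydroxylates fatty acids at their omega end, read 12.32, 12.33 and 12.12 in the wild-type pieces, 9.56, 8.22 and 9.39 in the adjacent-labelled pieces, and 6.82, 6.53 and 5.63 in tumor. The 3 groups lay on 3 separate levels. It fell 60.8-fold in tumor (-5.93, SE 0.35, adjusted p = 1.5e-07), 9.18-fold in adjacent-labelled liver (-3.20, SE 0.35, adjusted p = 1.93e-05), and 6.63-fold between adjacent-labelled liver and tumor (-2.73, SE 0.35, adjusted p = 0.000112).

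Cyp4a12a, the male-biased arachidonic acid hydroxylase of the same cluster, read 11.86, 11.79 and 11.91 in the wild-type pieces, 11.63, 11.07 and 11.82 in the adjacent-labelled pieces, and 10.34, 9.89 and 9.70 in tumor. Wild-type and adjacent-labelled values overlapped, and the tumor pieces were apart. It fell 3.67-fold in tumor (-1.88, SE 0.19, adjusted p = 9.99e-06) and was lower there than in adjacent-labelled liver by 2.89-fold (-1.53, SE 0.19, adjusted p = 9.29e-05). Cyp4a31, which lies between Cyp4a14 and Cyp4b1, was not called and differed in the other direction, by 0.37 in tumor and 0.46 in adjacent-labelled liver. Cyp4b1, a lung and kidney enzyme, differed by -0.35 and -0.57. The 3 tested Cyp4a genes were listed together under PPAR alpha, although Cyp4a12a is also on the male-biased list. Of these 3, 2 fell in tumor and 1 in adjacent-labelled liver, where 4.59% and 3.22% of all genes fell.

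Ppara itself read 10.83, 10.90 and 10.93 in the wild-type pieces, 10.07, 10.06 and 10.15 in the adjacent-labelled pieces, and 11.15, 11.10 and 10.83 in tumor, and was not called. Its difference was 0.14 in tumor, where Cyp4a14 was lowest, and -0.79 in adjacent-labelled liver. Its coactivator gene Ppargc1a fell by 1.28 and 1.16. The part of PPAR alpha in the Cyp4a values was not tested. Of 13 tested targets of PPAR alpha outside the P450 genes, 4 fell and 1 rose in tumor. Those that fell were the lipid droplet gene Cidea (-2.73), the acyl-CoA thioesterase Acot1 (-2.64), the lipase inhibitor Angptl4 (-1.54) and the pyruvate dehydrogenase kinase Pdk4 (-1.04), and the pantetheinase Vnn1 rose by 1.23. In adjacent-labelled liver 1 rose, Acot2 at 1.06, and 1 fell, Cidea, of which 2 of the 3 pieces there lay below the filter.

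The Cyp4f genes, which inactivate leukotrienes and hydroxylate long-chain fatty acids, split within 1 cluster on chromosome 17. Cyp4f14, a leukotriene B4 hydroxylase, read 12.01, 11.92 and 11.97 in the wild-type pieces, 11.60, 11.48 and 11.73 in the adjacent-labelled pieces, and 8.78, 8.60 and 7.998 in tumor. The tumor pieces stood far below the rest. It fell 11.4-fold in tumor (-3.51, SE 0.16, adjusted p = 2.46e-08), differed by -0.36 in adjacent-labelled liver (adjusted p = 0.0737), and was 8.83-fold lower in tumor than in adjacent-labelled liver (-3.14, SE 0.16, adjusted p = 2.24e-07).

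Cyp4f15 read 11.50, 11.47 and 11.59 in the wild-type pieces, 10.80, 10.96 and 10.94 in the adjacent-labelled pieces, and 10.38, 10.11 and 9.61 in tumor. It descended from group to group without overlap, with a 2.8-fold fall in tumor (-1.49, SE 0.16, adjusted p = 1.11e-05) and a difference of -0.62 in adjacent-labelled liver. Cyp4f13, the gene next to Cyp4f14, differed by -0.68 in tumor and 0.18 in adjacent-labelled liver and was not called.

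Cyp4f16 moved against its neighbours. It read 6.53, 6.95 and 6.61 in the wild-type pieces, 8.41, 8.41 and 8.54 in the adjacent-labelled pieces, and 8.74, 8.87 and 8.59 in tumor, so the wild-type pieces were the low ones. It rose 4.09-fold in tumor (2.03, SE 0.11, adjusted p = 7.3e-08) and 3.37-fold in adjacent-labelled liver (1.75, SE 0.11, adjusted p = 2.73e-07). Its other probe set gave 0.96 in tumor, short of the minimum, and 1.22 in adjacent-labelled liver. Cyp4f18, a leukotriene B4 hydroxylase of neutrophils, which is encoded on chromosome 8 apart from the cluster, read 5.32 to 5.64 in wild-type liver, 6.10 to 6.90 in adjacent-labelled liver and 6.14 to 6.21 in tumor. The wild-type pieces were below the others, by 0.68 against tumor and 0.90 against adjacent-labelled liver, and Cyp4f18 was not called. Cyp4v3, a fatty acid hydroxylase also on chromosome 8, read 12.24 to 12.63 in wild-type liver, 11.80 to 11.97 in adjacent-labelled liver and 11.35 to 11.56 in tumor. Its tumor difference of -0.95 (SE 0.10, adjusted p = 1.51e-05) was just under the minimum, and its other probe set gave -1.09.

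**Figure D3:**
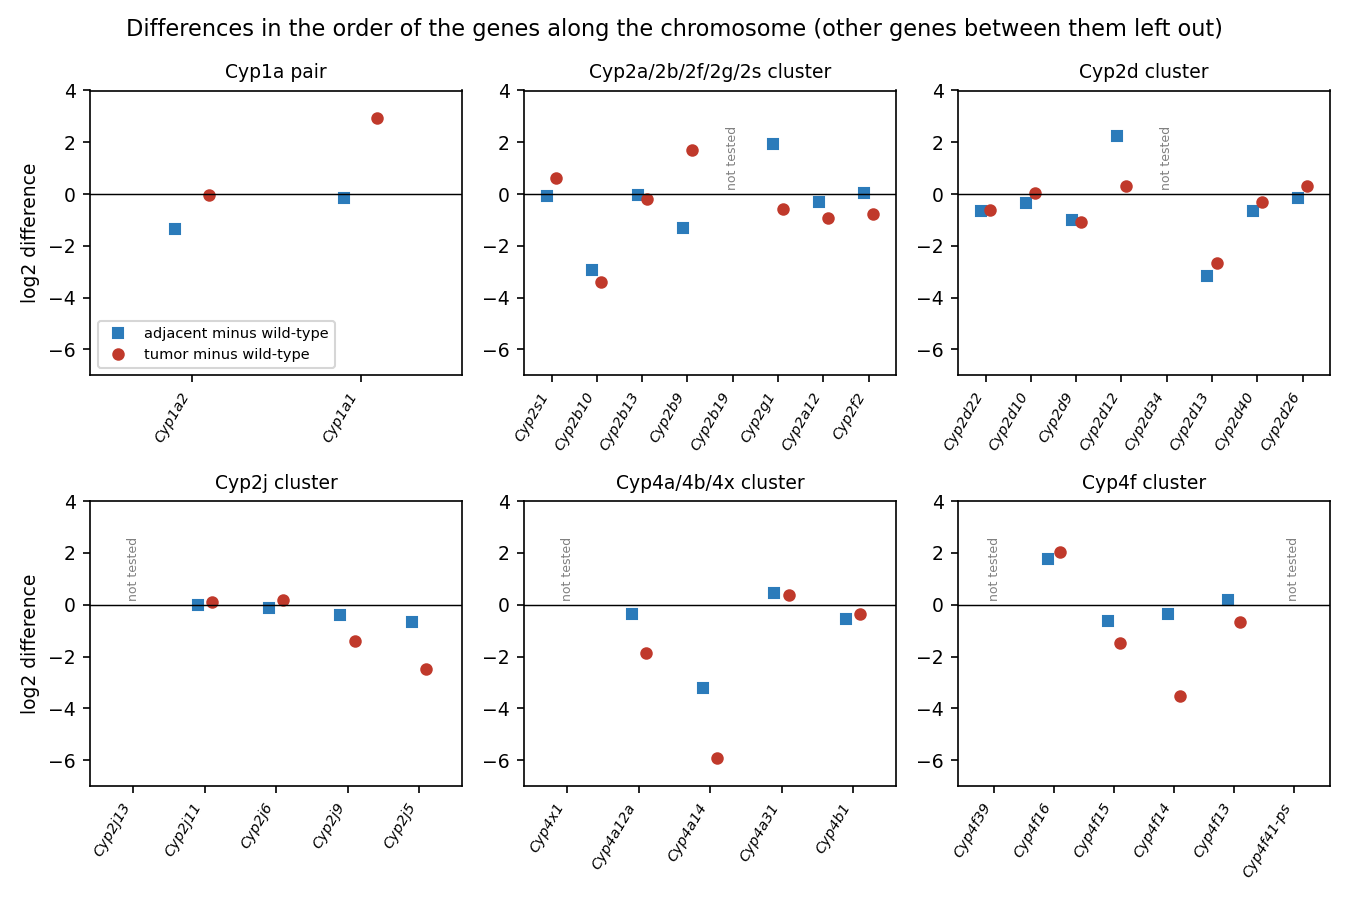
Log2 differences from wild-type liver for adjacent-labelled liver (squares) and tumor (circles), with the P450 genes of 6 genomic clusters in their order along the chromosome and other genes between them left out. Within a cluster the differences vary widely, from 2.03 for Cyp4f16 to -3.51 for Cyp4f14 in tumor, and from 2.26 for Cyp2d12 to -3.18 for Cyp2d13 in adjacent-labelled liver.

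Genes that differ between the sexes were counted apart, since all mice were male. Of 3 tested male-biased genes, Cyp2d9, Cyp2u1 and Cyp4a12a, all 3 fell in tumor and 1, Cyp2u1, fell in adjacent-labelled liver. Of 3 tested female-biased genes, Cyp2b9 rose and Cyp2b10 fell in tumor, and both fell in adjacent-labelled liver. The female-biased genes Cyp3a16 and Cyp3a44 were measured but too dim to test. Among regulators of this sex difference, Bcl6, a repressor with higher levels in males, fell in tumor (-1.23, adjusted p = 1.12e-07) and in adjacent-labelled liver (-2.18, adjusted p = 2.76e-09). Stat5b, which carries the growth hormone signal, differed by -0.70 and -0.58, Stat5a by -0.60 and -0.09, the female-biased Cux2 by -0.44 and -0.21, and Onecut1 by -0.62 and -0.66, and none of these 4 was called. Of the 9 tested Cyp2j and Cyp4f genes, 4 fell (44.4%) and 1 rose (11.1%) in tumor, and 0 fell and 1 rose in adjacent-labelled liver. Over all tested genes, 4.59% fell and 8.41% rose in tumor, and 3.22% fell and 8.29% rose in adjacent-labelled liver. The shares that rose among these 9 genes were thus near the background.

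**Figure D4:**
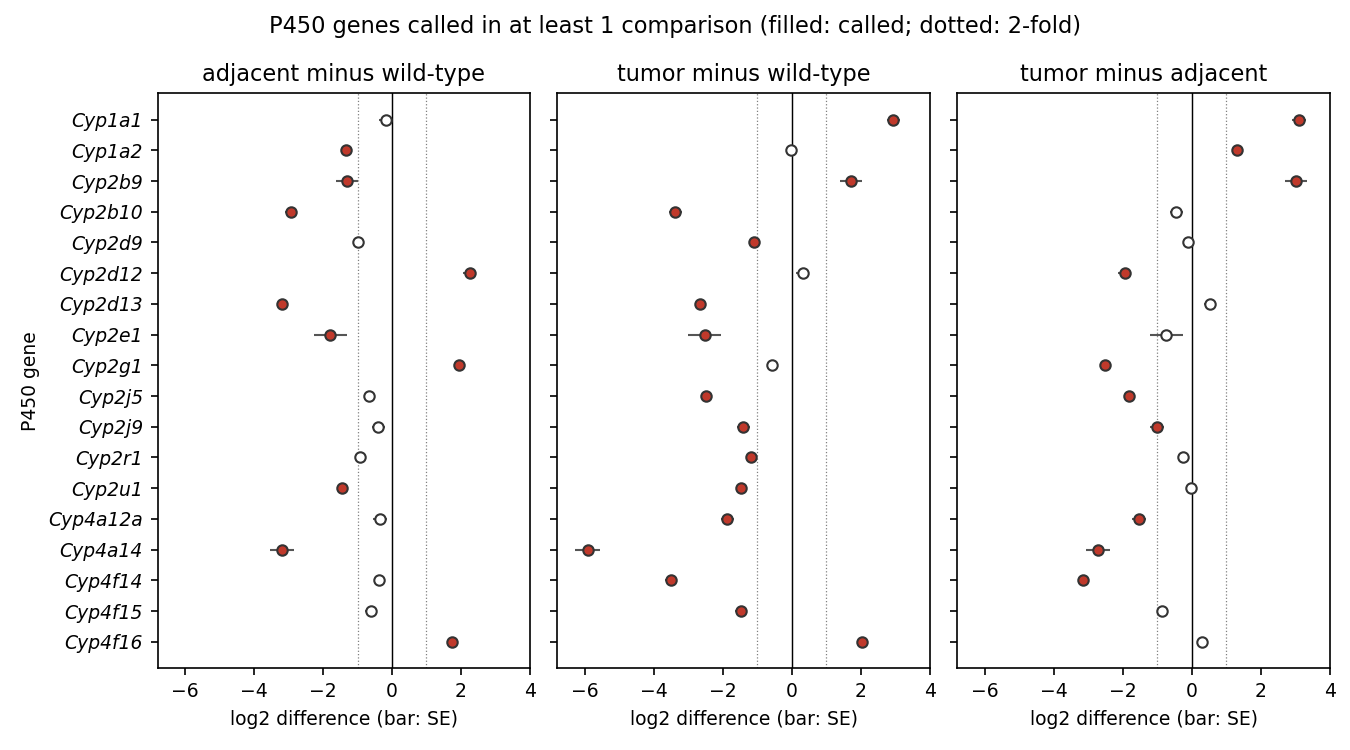
Log2 differences with their standard errors for the 18 P450 genes called in at least 1 comparison; filled points were called and dotted lines mark a 2-fold difference. Cyp4a14 has the largest difference in tumor against wild-type liver at -5.93, and the Cyp2d12 and Cyp2g1 points lie to the right of the 2-fold line in adjacent-labelled against wild-type liver alone.

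The partners of the P450 enzymes supply their electrons or process their products. Of 7 tested electron donors and partners, 3 fell in tumor and 0 rose, and in adjacent-labelled liver 1 fell and 1 rose. Por, the gene of NADPH-P450 reductase, was listed with them but had no probe set with a single gene symbol, so it was not read. Those that fell in tumor were Cyb5b, the outer mitochondrial cytochrome b5 (-1.44), the heme-binding Pgrmc2 (-1.23) and the soluble epoxide hydrolase Ephx2 (-1.13). In adjacent-labelled liver Pgrmc2 fell by 1.08 and Ephx1, the microsomal epoxide hydrolase, rose by 1.15. The cytochrome b5 of the endoplasmic reticulum, Cyb5a, differed by -0.18 and -0.15, its reductase Cyb5r3 by 0.21 and 0.32, and Pgrmc1 by -0.21 and -0.09.

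Of 9 tested genes of heme synthesis and breakdown, Cpox was the one called in both comparisons with wild-type liver. Cpox, the coproporphyrinogen oxidase, read 9.63, 9.75 and 9.83 in the wild-type pieces, 7.64, 7.24 and 7.63 in the adjacent-labelled pieces, and 8.37, 8.42 and 8.42 in tumor. The adjacent-labelled pieces were lowest, at -2.23 (SE 0.10, adjusted p = 3.12e-08), and the tumor fell by 1.33 (SE 0.10, adjusted p = 1.15e-06). Alas1, the rate-limiting enzyme of hepatic heme synthesis, was not called, with differences of 0.08 and 0.22.

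Among 22 tested regulators of P450 genes, 5 fell in tumor and 4 in adjacent-labelled liver, and 0 rose. Beside Ahr, Nr1i3, Ppargc1a and Bcl6, the bile acid receptor gene Nr1h4 fell by 1.08 in tumor, and Foxa1 fell by 1.28 in adjacent-labelled liver (-0.07 in tumor). Foxa1 was higher in tumor than in adjacent-labelled liver by 1.21 (adjusted p = 9.61e-06). The hepatocyte factors Hnf4a (-0.20 and -0.12), Cebpa (0.05 and -0.20), Foxa2 (-0.33 and -0.28) and Foxa3 (0.59 and 0.57) stayed within 2-fold. So did the receptor partners Rxra (-0.35 and -0.60) and Rxrb (-0.31 and 0.00), the corepressor Nr0b2 (-0.50 and -0.48) and the stress factor Nfe2l2 (0.95 and 0.31).

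**Figure D5:**
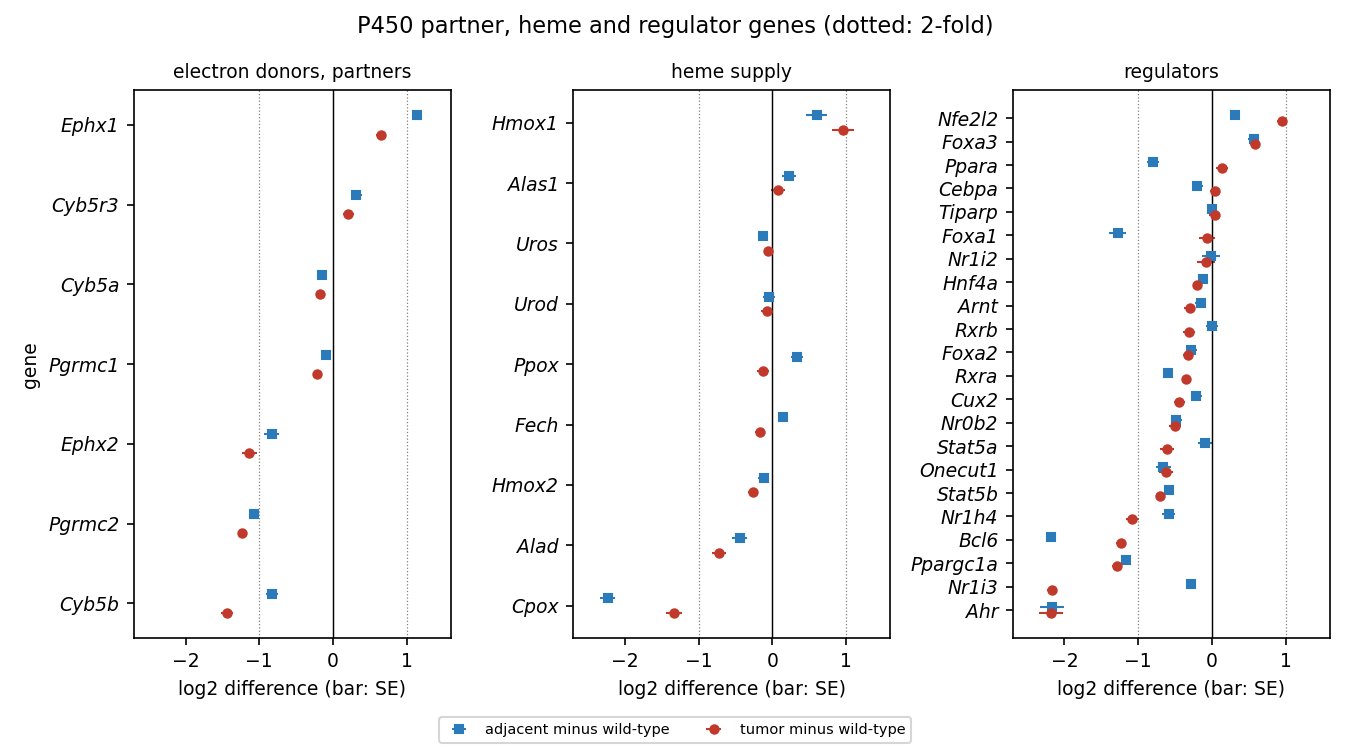
Log2 differences from wild-type liver with their standard errors for partner, heme and regulator genes of the P450 enzymes, in adjacent-labelled liver (squares) and tumor (circles); dotted lines mark a 2-fold difference. Pgrmc2, Cpox, Bcl6, Ppargc1a and Ahr lie below the 2-fold line in both, and Nr1i3 does so in tumor.

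The 8 P450 genes that were not tested were Cyp2b19, Cyp2d34, Cyp2j13, Cyp3a16, Cyp3a44, Cyp4f39, Cyp4f41-ps and Cyp4x1. Their values lay between 2.74 and 5.50 on all arrays, and without Cyp3a16 none was above 5.08. The filter required a value above the 40th percentile of the array, 5.16 to 5.26, on at least 3 arrays. Just inside it stood Cyp2b13, with 3 arrays, and just outside it Cyp3a16, with 2 arrays. At such levels signal cannot be told from background, and no statement is made about whether these genes are expressed.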

How the data were processed

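RNA from 9 tissue pieces was hybridised to 1-colour Affymetrix 3' arrays of 45101 probe sets, 1 array per piece. Per the submitters' processing notes, the authors' log2 values come from RMA, run with the Affymetrix Expression Console, version 1.3.1.187. RMA equalises the array distributions, so a shift of most genes would not show, and the number of arrays limits the precision. The platform annotation gave 34958 probe sets 1 symbol, 932 several and 9211 none. Probe sets with several symbols were not used, among them 4 that include a member, and near-identical P450 genes may share signal. Genes above the 40th percentile on at least 3 of 9 arrays numbered 13888 and entered 1 limma fit (version 3.58.1, R 4.3.3) with 1 mean per group and 6 residual degrees of freedom. Their p-values were adjusted together by the Benjamini-Hochberg method. This step was tested on simulated data. The members and gene lists were chosen with earlier results of these data known. Members called, or bright in a group, are given in full, other members by values or range. Genes outside the set come from the lists, up to 4 a list plus every measured partner and regulator. Promoters came from RefSeq (GRCm38.p6). Same-numbered pieces are not described as paired, and their deviations correlated at -0.113 to 0.138.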

Additional observations from a re-analysis of the deposited data

Results flagged for a closer look

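For 10 P450 genes the tumor and the adjacent-labelled liver differed in their distance from wild-type liver, by limma's test of tumor against adjacent-labelled liver. Tumor minus adjacent-labelled liver was positive for Cyp1a1 (3.11), Cyp2b9 (3.03) and Cyp1a2 (1.32). It was negative for Cyp4f14 (-3.14), Cyp4a14 (-2.73), Cyp2g1 (-2.52), Cyp2d12 (-1.94), Cyp2j5 (-1.82), Cyp4a12a (-1.53) and Cyp2j9 (-1.01). Cyp3a16, left out of the tests because it was dim, had a mean of 4.84 in adjacent-labelled liver, where its 3 pieces lay above all wild-type and tumor pieces. Its mean was below the filter in every group, so no size is given for these differences.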

How the results depend on the processing

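Of 35 calls over the 3 comparisons, 32 held under every alternative run, 3 were lost under at least 1, and 10 uncalled values were called under at least 1. The alternatives covered the threshold, the filter, the probe set rule, 2 further normalizations, the variance model, array weights, the 2 groups alone, and each array left out. The other thresholds and the untested genes are left out of these counts of calls. Without the filter, the untested Cyp3a16 was called higher in adjacent-labelled liver than in wild-type liver and than in tumor. Its levels there cannot be told from background. With no minimum difference, 22 members were lower and 8 higher in tumor against wild-type liver, 18 and 6 in adjacent-labelled against wild-type liver, and 15 and 9 in tumor against adjacent-labelled liver. With a minimum log2 difference of 2, the members lower and higher were 6 and 2 in tumor against wild-type liver. They were 3 and 1 in adjacent-labelled against wild-type liver, and 3 and 2 in tumor against adjacent-labelled liver. Leaving out each array gave 12 to 13 lower and 3 to 3 higher in tumor against wild-type liver (medians -0.61 to -0.478), 6 to 8 lower and 3 to 4 higher in adjacent-labelled liver (-0.427 to -0.303), and 6 to 8 lower and 3 to 3 higher in tumor against adjacent-labelled liver (-0.223 to -0.02).

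The calls lost were Cyp2b9 in adjacent-labelled liver without wild-type replicate 3 (-0.93), Cyp2j9 in tumor against adjacent-labelled liver without adjacent replicate 3 (-0.96), without tumor replicate 3 (-0.74) or with array weights (-0.83), and Cyp4f16 in tumor on its other probe set (0.96). The most variable probe set reversed Cyp2j6 in adjacent-labelled liver (1.13). Single arrays also moved values just past the threshold. Without tumor replicate 3 Cyp2a12 reached -1.06 in tumor, and without wild-type replicate 2 or tumor replicate 1 Cyp4v3 reached -1.03 and -1.01. In adjacent-labelled liver Cyp2d9 reached -1.01 without wild-type replicate 1 and -1.08 without adjacent replicate 2, and Cyp4f18 reached 1.01 and 1.04 without adjacent replicate 1 or 3. In tumor against adjacent-labelled liver Cyp4f15 reached -1.04 without tumor replicate 1 and Cyp2e1 -1.33 without adjacent replicate 2. The cause was not tested. The replicate number as a block left every count as it was, at 12 lower and 3 higher, 7 and 3, and 7 and 3, with a median of -0.57 in tumor against wild-type liver. Values of the other probe sets of a member were added as an alternative after seeing the data.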
